A study of Mus musculus with 24 samples.

Results

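The genes described here carry phosphate and calcium across the intestinal epithelium or set the vitamin D signal that governs this transport. They are 8 genes, taken by symbol from the 56691 genes of the count table, namely Slc34a2, Slc20a1, Slc20a2, Trpv6, S100g, Atp2b1, Vdr and Cyp24a1. The list was written with earlier results of these libraries known. Slc34a2, the lead gene, was selected on its measured levels in these libraries, the contrast not being given in the sources used here. Whether values also took part in choosing the other 7 is not given either, so their tests are not independent of the choice. The values of Slc34a2 are therefore given as a description with no test, and the p-values of the other genes are those of fits over all genes. Of the 8 genes, 6 had 10 or more counts in 3 or more libraries and were tested, and Trpv6 and Cyp24a1 did not. Passing this filter says nothing of how a gene changed.

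The tissue was distal jejunum of mice aged 9 to 11 weeks, with 24 mice, 1 RNA library per mouse and 3 mice per group. All mice came from 1 colony with a C57BL/6 background, and the age-matched mice of a group were drawn from different litters. The 8 groups were male wild type control, male wild type succinate, male Ptk6-/- control, male Ptk6-/- succinate, and the same 4 groups of females. Ptk6-/- mice lack the intracellular tyrosine kinase PTK6 in every tissue from the germline on, so an effect in the epithelium cannot be told apart from one in other cells. Succinate mice drank water with 100 mM succinate for 7 days, which triggers a type 2 immune circuit through tuft cells, while control mice drank regular water. The comparisons ask whether loss of PTK6, succinate or sex changes the level of these genes.

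Absorption of both ions has an active route through the enterocyte and a passive one between cells. For phosphate, sodium-coupled carriers in the brush border bring the ion in; SLC34A2 (NaPi-IIb) is the main one in the small intestine, and the pair of SLC20 carriers are widely expressed and serve many cells. For calcium, TRPV6 is the apical channel, S100G (calbindin-D9k) binds calcium and ferries it through the cytosol, and ATP2B1 (PMCA1) pumps it out of the cell. The vitamin D receptor VDR, a nuclear receptor, binds the hormone calcitriol and induces Trpv6, S100g and Cyp24a1, and CYP24A1 degrades calcitriol.

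The promoters of 4 of the genes are shown because these genes either varied together across the 24 mice (Slc34a2 and Vdr) or ran opposite to Slc34a2 (S100g and Slc20a1). Each is the stretch of 250 bases that ends just before the annotated start site, written 5′ to 3′ on the gene's own strand, from RefSeq on build GRCm38.p6. Slc20a1 has another window (chr2:129206846-129207095) that is not printed. Capitals mark the matches to the motifs named below.
Slc34a2: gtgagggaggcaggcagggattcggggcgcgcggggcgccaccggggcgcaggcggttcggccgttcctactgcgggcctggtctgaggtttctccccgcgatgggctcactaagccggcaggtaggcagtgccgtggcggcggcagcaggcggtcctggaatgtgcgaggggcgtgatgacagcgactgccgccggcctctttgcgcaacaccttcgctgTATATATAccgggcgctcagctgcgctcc
Vdr: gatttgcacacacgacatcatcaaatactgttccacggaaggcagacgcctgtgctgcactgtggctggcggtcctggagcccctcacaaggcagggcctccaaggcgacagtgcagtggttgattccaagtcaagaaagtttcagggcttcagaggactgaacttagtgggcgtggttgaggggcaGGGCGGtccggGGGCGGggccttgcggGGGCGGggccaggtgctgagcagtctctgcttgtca
S100g: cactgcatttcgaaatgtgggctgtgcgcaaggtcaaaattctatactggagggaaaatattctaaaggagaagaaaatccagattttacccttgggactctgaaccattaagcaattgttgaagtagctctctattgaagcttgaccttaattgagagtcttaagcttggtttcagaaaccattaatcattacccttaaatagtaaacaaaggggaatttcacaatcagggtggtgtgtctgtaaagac
Slc20a1: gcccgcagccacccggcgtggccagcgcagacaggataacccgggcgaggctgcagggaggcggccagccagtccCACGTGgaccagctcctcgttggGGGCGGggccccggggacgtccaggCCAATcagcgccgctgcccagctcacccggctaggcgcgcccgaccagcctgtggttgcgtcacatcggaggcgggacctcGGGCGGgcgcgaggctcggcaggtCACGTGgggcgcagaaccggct
The windows lie at chr5:53049103-53049352 (plus strand) for Slc34a2, chr15:97908297-97908546 (minus strand) for Vdr, chrX:162964600-162964849 (minus strand) for S100g and chr2:129198523-129198772 (plus strand) for Slc20a1. GC content was 69.6% for Slc34a2, 61.2% for Vdr, 75.2% for Slc20a1 and 38.4% for S100g. The median over 32851 promoter windows was 52.4%, and 9.05% of them had less GC than that of S100g. In all, 10 motifs were searched on both strands.

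In the Slc34a2 window the run TATATATA lay 29 to 22 bases before the start site. This run, added to the search after the window had been read, was in 0.737% of all windows. The Vdr window held 3 copies of the GC box GGGCGG, and that of Slc20a1 held 2, beside 2 E-boxes (CACGTG) and 1 CCAAT box. The other Slc20a1 window, with 50.8% GC, held 1 GC box and none of the other motifs. The GC box was in 32.7% of all windows, CACGTG in 6.02% and CCAAT in 33.8%. The S100g window held none of the 10 motifs. The others were TATAAA (12.4% of windows), the GATA element AGATAA (9.99%), the CDX element TTTATG (10.8%), the HNF4 element CAAAGTCCA (0.384%), the HNF1 element (0.00913%) and the direct repeat of vitamin D response elements (0.00609%), with TATAAA and TATATATA able to overlap. No match means only that these letters were not in this window.

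Some facts of the libraries touch the results. Total counts ran from 8080321 to 52824743. Ptk6 had 7 to 61 counts in the Ptk6-/- libraries and 284 to 2405 in wild type ones. In all, 3 libraries stood apart. Replicate 1 of the male wild type controls held 51.2% ribosomal 18S counts. Replicate 1 of the male Ptk6-/- succinate mice held 29.7%, had the fewest counts and had the highest sum of ileal markers (10435 CPM, the next at 4454). Replicate 2 of the female wild type succinate mice held heart transcripts (17153 CPM over 6 genes, the next library at 208) and 74.3 CPM of Y-linked genes, which goes against its label, while the other female libraries had at most 0.971 CPM. Its Xist level, 79.1 CPM, was below the 92.1 to 184 CPM of the other females and far above the males, whose highest was 1.66 CPM. Enterocyte markers were high in every library, with a sum of 6139 to 32710 CPM over 8 genes. Alveolar and club cell markers of the lung, another tissue rich in Slc34a2, summed to 0 to 20.7 CPM. No source used here says that replicates were anything but separate mice.

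Levels are given as counts scaled to library size with TMM factors (CPM) within a gene, and as FPKM, which corrects for gene length, between genes. By FPKM, Slc34a2 had the highest median of the list, at 77.6 (range 10.8 to 180.1 over 24 mice). Vdr followed at 29.2 (7.04 to 56.5) and Atp2b1 at 3.98 (0.950 to 6.4). S100g lay at a median of 2.61 but ranged from 0.274 to 47.1. Slc20a2 had a median of 1.96 and Slc20a1 one of 1.81. The FPKM of Slc34a2 was above that of each SLC20 carrier in 24 of 24 mice, with a median ratio of 49.0 to Slc20a1 and 40.3 to Slc20a2. Its smallest ratios, 1.5 and 2.16, were both in the female wild type succinate library with heart transcripts. Slc34a2 exceeded S100g in 21 of 24 mice, with ratios from 0.240 to 473 (median 25.1). The median ratio of Slc34a2 to Vdr was 2.30, and Slc34a2 was the higher in 21 of 24 mice.

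**Figure D1:**
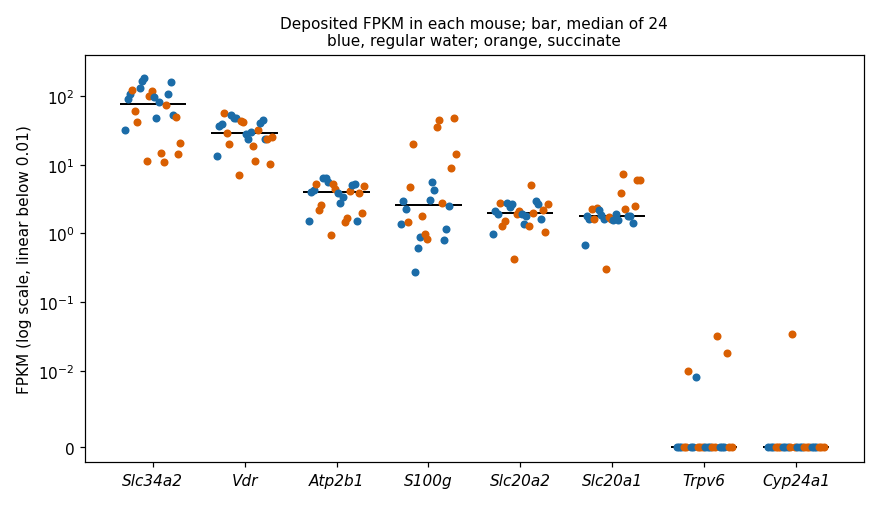
Deposited FPKM of the 8 genes (log scale, linear below 0.01) in each of the 24 mice, blue for regular water and orange for succinate, with a bar at the median. Slc34a2 sits highest at a median of 77.6, S100g spreads from 0.274 to 47.1, and Trpv6 and Cyp24a1 lie at 0 in 20 and 23 mice.

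Slc34a2 (ENSMUSG00000029188, chr5:53195423-53229006 on the plus strand of GRCm39, as deposited) was highest in male Ptk6-/- controls and lowest in succinate-treated females. In males, the wild type controls had 457, 577 and 691 CPM and the Ptk6-/- controls 742, 1036 and 1214 CPM. Under succinate, wild type males had 662, 424 and 289 CPM and Ptk6-/- males 243, 706 and 795 CPM. The control genotypes of males did not overlap, whereas succinate and control males overlapped in both genotypes. In females, the wild type controls had 664, 349 and 562 CPM and the Ptk6-/- controls 626, 996 and 443 CPM. Under succinate, wild type females had 107, 77.0 and 471 CPM and Ptk6-/- females 293, 95 and 113 CPM. Every Ptk6-/- female on succinate lay below every Ptk6-/- control female, and in wild type females 2 of 3 succinate mice lay below all controls. The lowest value of the male Ptk6-/- succinate group and the 77.0 CPM of the wild type females are from libraries that stood apart.

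Group means of Slc34a2 ran, from the highest, as follows: 997 ± 238 CPM in male Ptk6-/- controls, 688 ± 281 in female Ptk6-/- controls, 581 ± 296 in male Ptk6-/- succinate mice and 575 ± 117 in male wild type controls (SD, n = 3 each). Then came 525 ± 161 in female wild type controls, 458 ± 189 in male wild type succinate mice, 218 ± 219.6 in female wild type succinate mice and 167 ± 109 in female Ptk6-/- succinate mice. The ranges of each pair of neighbours in this order overlapped.

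As log2 fold changes with standard errors, the fitted succinate effect on Slc34a2 was -0.34 ± 0.33 in wild type males, -0.77 ± 0.44 in Ptk6-/- males, -1.24 ± 0.69 in wild type females and -2.07 ± 0.53 in Ptk6-/- females. With single libraries left out, the value ran from -0.73 to -0.10 in wild type males, both extremes on leaving out a succinate mouse (replicates 1 and 3). It was -0.43 in Ptk6-/- males without the library that stood apart. In wild type females it was -2.47 without replicate 3 and -0.84 without replicate 2 of the succinate mice. All 4 were negative, and 11 of 12 succinate mice lay below the mean of the controls of their own sex and genotype. Pooled over the 24 mice the effect was -1.09 ± 0.31, a 2.13-fold lower level, and -1.01 ± 0.30 without the 3 libraries that stood apart. The fitted genotype effect was 0.78 ± 0.22 in control males, 0.43 ± 0.39 in control females, 0.35 ± 0.52 in succinate males and -0.39 ± 0.75 in succinate females, and 0.30 ± 0.30 pooled. In control females it was 0.07 without replicate 2 of the Ptk6-/- mice and 0.68 without replicate 3. In succinate males it was 0.08 without replicate 3 of the Ptk6-/- mice and 0.74 without replicate 1 of the wild type. In succinate females, leaving out replicate 3 of the wild type turned the sign, to 0.86. It was -1.08 there without replicate 1 of the Ptk6-/- mice. The pooled genotype effect ran from 0.18 to 0.48 with single libraries left out. Males exceeded females by 0.87 ± 0.31 in the pooled fit (0.90 without the 3 libraries), which pools both treatments. Male and female means were 575 and 525 CPM in wild type controls and 997 and 688 CPM in Ptk6-/- controls. Under succinate they were 458 and 218 CPM in the wild type and 581 and 167 CPM in Ptk6-/- mice. Of 8 lung markers, 6 had lower values in males at an unadjusted p under 0.05 (8.38% of all genes did). Of them, 2 were called, as were 0.0461% of all genes. These markers summed to at most 20.7 CPM, while Slc34a2 had 77.0 to 1214 CPM. Their part in the level of Slc34a2 was not tested. The genotype by succinate interaction was -0.42 ± 0.58 in males and -0.80 ± 0.94 in females. Without replicate 3 of the female wild type succinate mice the latter was 0.46, and without replicate 1 of the male wild type succinate mice the former was -0.06. The other extremes were -1.48 in females without replicate 1, and -0.69 in males without replicate 3, of the Ptk6-/- succinate mice.

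**Figure D2:**
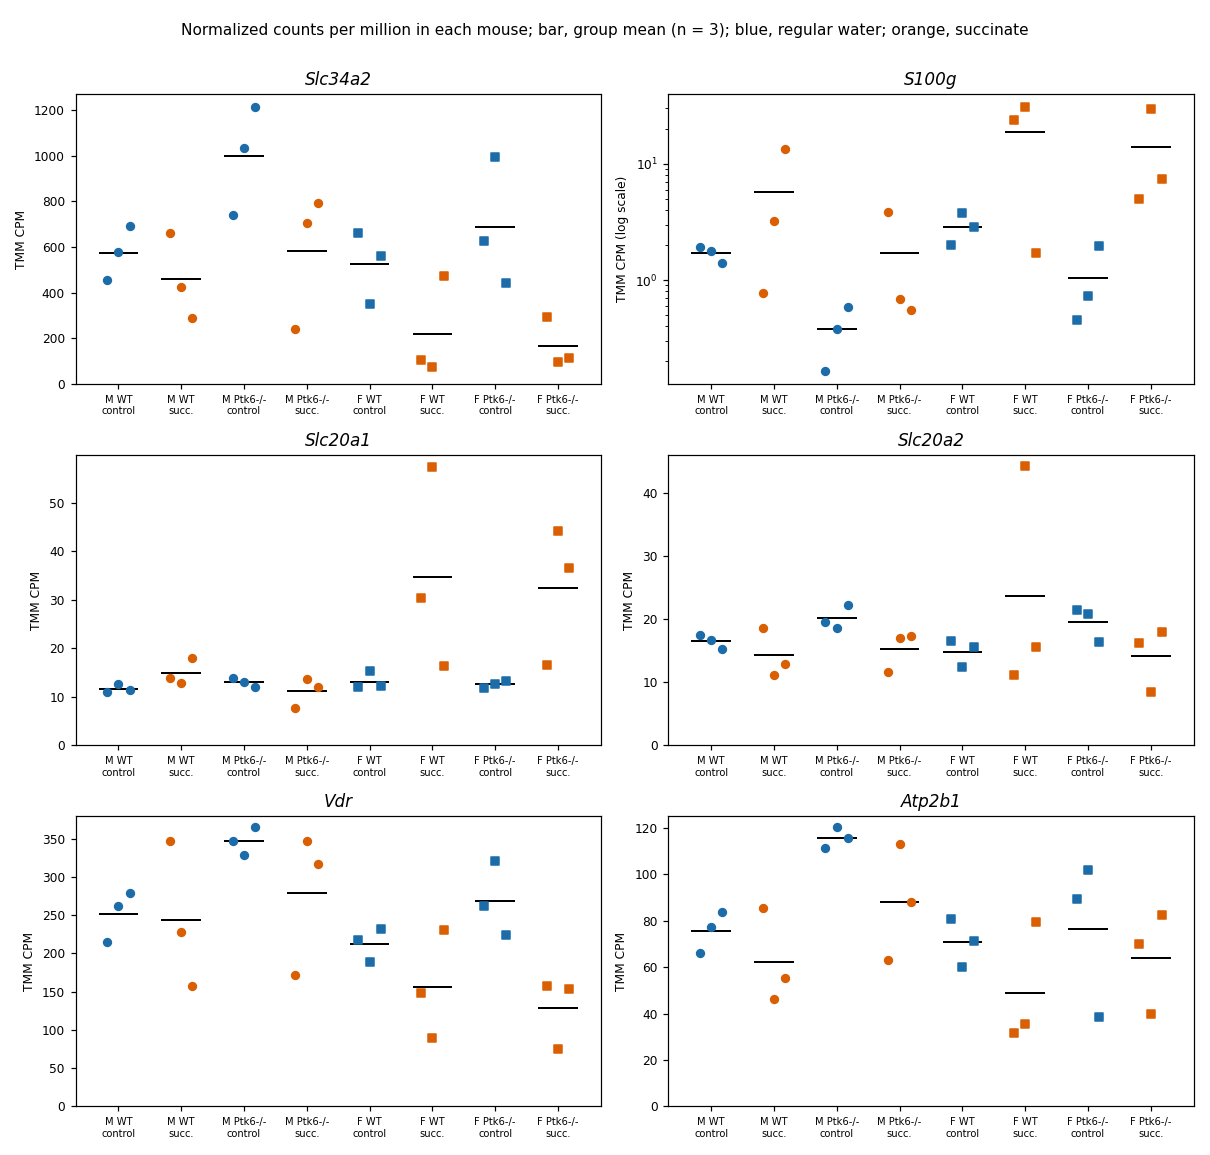
Normalized counts (TMM CPM, log scale for S100g) of the 6 tested genes in each mouse, by sex, genotype and treatment, with a bar at the mean of 3 mice. Slc34a2 falls to 77.0 to 113 CPM in 4 succinate females, where S100g reaches 7.44 to 30.8 CPM.

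Of the ubiquitous phosphate carriers, Slc20a1 was higher in succinate females, though without passing the test, and Slc20a2 ranged from 8.46 to 22.2 CPM outside 1 library. Slc20a1 (ENSMUSG00000027397, chr2:129040684-129053536, plus strand) stayed between 10.9 and 15.4 CPM in all 12 control mice. Under succinate it was 30.4, 57.3 and 16.3 CPM in wild type females and 16.4, 44.1 and 36.4 CPM in Ptk6-/- females. Their controls had 11.9, 15.4 and 12.1 CPM and 11.9, 12.7 and 13.2 CPM, so neither pair of female groups overlapped. Wild type males on succinate had 13.9, 12.9 and 17.9 CPM against 10.9, 12.7 and 11.4 CPM, again without overlap. Ptk6-/- males on succinate had 7.68, 13.6 and 12 CPM against 13.8, 12.9 and 12.1 CPM, and the lowest of these rests on 28 counts in a library that stood apart.

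The log2 fold change of Slc20a1 under succinate was 1.41 ± 0.44 in wild type females (edgeR's quasi-likelihood test, adjusted p = 0.611) and 1.34 ± 0.38 in Ptk6-/- females (adjusted p = 0.367), which did not pass the test. In males it was 0.34 ± 0.22 in the wild type, or 0.17 without replicate 3 of the succinate mice, and -0.19 ± 0.25 in Ptk6-/- mice. In Ptk6-/- males it was -0.04 without the library that stood apart and -0.33 without replicate 2 of the succinate mice. The pooled effect was 0.73 ± 0.22 (adjusted p = 0.129), with 10 of 12 succinate mice above the mean of their own controls. In wild type females, the value was 1.78 (adjusted p = 0.0392) without replicate 3 of the succinate mice and 0.86 without replicate 2, the library with heart transcripts. The pooled difference of males minus females was -0.71 ± 0.22 (edgeR, adjusted p = 0.160). This fit pools both treatments. Mean levels in wild type and Ptk6-/- controls were 11.7 and 12.9 CPM in males and 13.1 and 12.6 CPM in females. Under succinate they were 14.9 and 11.1 CPM in males and 34.7 and 32.3 CPM in females.

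Slc20a2 (ENSMUSG00000037656, chr8:22966804-23059628, plus strand) was not called for treatment, though 9 of 12 succinate mice lay below the mean of their own controls. Male wild type controls had 17.5, 16.6 and 15.2 CPM, and male Ptk6-/- controls 19.5, 18.6 and 22.2 CPM, without overlap. Male Ptk6-/- succinate mice had 11.5, 17.0 and 17.3 CPM, all below their controls, and male wild type succinate mice had 18.6, 11.1 and 12.9 CPM. Female wild type controls had 16.5, 12.4 and 15.6 CPM, and female Ptk6-/- controls 21.4, 20.7 and 16.4 CPM. The succinate females had 11.2, 44.1 and 15.6 CPM (wild type) and 16.2, 8.46 and 18 CPM (Ptk6-/-), where 44.1 CPM, the highest value of the gene, is from the library with heart transcripts.

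No Slc20a2 comparison passed the test. The fitted genotype effect for controls was 0.27 ± 0.14 (males) and 0.43 ± 0.23 (females). The succinate effect was 0.68 ± 0.49 in wild type females and -0.12 without the library with heart transcripts. It was -0.48 ± 0.33 in Ptk6-/- females, -0.22 ± 0.25 in wild type males, -0.36 ± 0.21 in Ptk6-/- males and -0.08 ± 0.20 pooled. The pooled value was -0.31 without the library with heart transcripts and -0.01 without replicate 2 of the Ptk6-/- succinate females. Without the 3 libraries that stood apart it was -0.25 ± 0.13 (edgeR, adjusted p = 0.393). Leaving out single succinate mice gave -0.67 (without replicate 3) and -0.22 (without replicate 2) in Ptk6-/- females, and -0.49 (without replicate 1) and -0.07 (without replicate 2) in wild type males.

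Among the calcium genes, S100g (ENSMUSG00000040808, chrX:161744988-161747595, minus strand) had the widest spread of the list, with 9 to 1505 counts per library and a 186-fold range in CPM. In males, the wild type controls had 1.94, 1.77 and 1.40 CPM and the Ptk6-/- controls 0.165, 0.378 and 0.588 CPM. In females, the wild type controls had 2.01, 3.80 and 2.85 CPM and the Ptk6-/- controls 0.449, 0.722 and 1.96 CPM. Control Ptk6-/- mice of each sex lay below every wild type control of that sex, with the closest pair at 1.96 and 2.01 CPM. Under succinate, male wild type mice had 0.774, 3.22 and 13.3 CPM and male Ptk6-/- mice 3.84, 0.683 and 0.554 CPM. Female wild type mice on succinate had 24, 30.8 and 1.70 CPM and female Ptk6-/- mice 4.98, 29.7 and 7.44 CPM. All Ptk6-/- females on succinate exceeded their controls, and in the other 3 pairs the ranges overlapped.

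Group means of S100g ran from 18.8 ± 15.2 CPM in female wild type succinate mice and 14.0 ± 13.6 in female Ptk6-/- succinate mice down to 5.78 ± 6.66 in male wild type succinate mice and 2.89 ± 0.894 in female wild type controls (SD, n = 3 each). Below these were 1.70 ± 0.278 in male wild type controls, 1.69 ± 1.86 in male Ptk6-/- succinate mice, 1.04 ± 0.807 in female Ptk6-/- controls and 0.377 ± 0.212 in male Ptk6-/- controls. Of the neighbours in this order, the ranges of the female and male wild type controls alone did not overlap.

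S100g was the single gene of the 7 other than Slc34a2 to be called (adjusted p under 0.05 and at least a 2-fold change) in any of 13 comparisons. It was higher under succinate in the pooled fit, by a log2 fold change of 2.61 ± 0.53 (6.10-fold; edgeR's quasi-likelihood test, adjusted p = 0.0166). In this fit 0.525% of the 21694 genes tested were called, and 10 of 12 succinate mice exceeded the mean of their own controls. The call rested in part on replicate 3 of the male wild type succinate mice, without which the adjusted p was 0.0839 (log2 fold change 2.31). Without the 3 libraries that stood apart, the value was 2.58 with an adjusted p of 0.0346. The 4 separate succinate effects were 1.77 ± 0.88 in wild type males, 1.97 ± 0.96 in Ptk6-/- males, 2.71 ± 0.88 in wild type females and 3.74 ± 0.85 in Ptk6-/- females, with adjusted p-values of 0.947, 0.60, 0.617 and 0.271. Without the library that stood apart, the value in Ptk6-/- males was 0.70, and without replicate 3 of the succinate mice that in wild type males was 0.21. Other single mice moved it the other way, to 2.27 (edgeR, adjusted p = 0.0401) in wild type males without replicate 1 and 3.29 (adjusted p = 0.00976) in wild type females without replicate 3 of the succinate mice.

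The genotype effect on S100g in control males was -2.19 ± 0.50, a 4.56-fold lower level, with an adjusted p of 0.0508 by edgeR that lies just outside the threshold. With limma on log2(FPKM + 1) it was smaller, at -0.99, and was not called. In control females the edgeR value was -1.45 ± 0.57 (adjusted p = 0.419), and -2.24 (adjusted p = 0.0275) without replicate 3 of the Ptk6-/- controls. In succinate males it was -2.0 ± 1.17 and ran from -3.23 to -0.36 with single libraries left out. In succinate females it was -0.42 ± 0.98 (adjusted p = 0.970). The sign turned, to 0.088, without the library with heart transcripts, and the value was -1.58 without replicate 2 of the Ptk6-/- mice. Pooled over 24 mice, Ptk6-/- minus wild type was -1.41 ± 0.51 (adjusted p = 0.317) and male minus female -1.81 ± 0.52 (adjusted p = 0.145). The median was 1.09 CPM in the 12 males and 3.32 CPM in the 12 females.

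**Figure D3:**
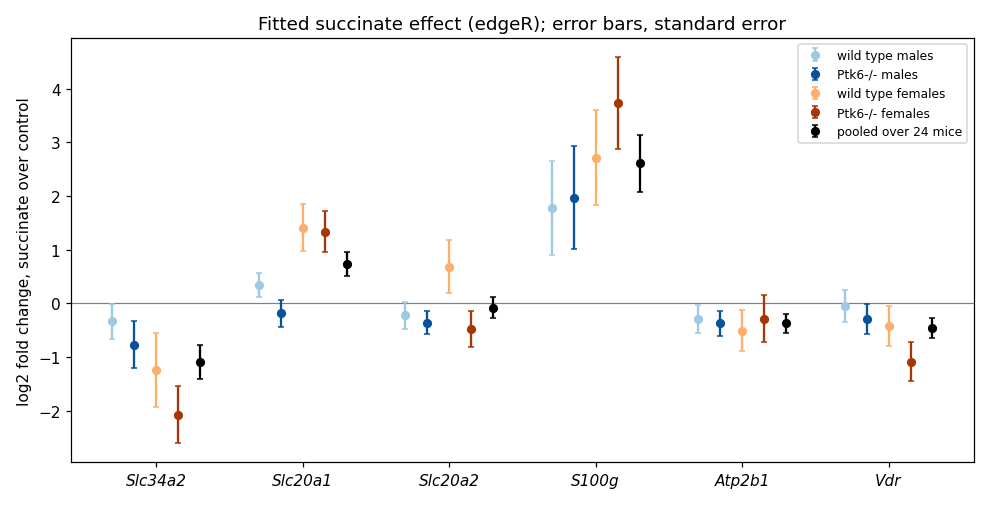
Log2 fold change of succinate over control (edgeR) with its standard error for the 6 tested genes, within each sex and genotype and pooled over 24 mice. Slc34a2 is negative and S100g positive in all 4 groups, with pooled values of -1.09 and 2.61.

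Atp2b1 (ENSMUSG00000019943, chr10:98750268-98862005, plus strand), for the basolateral pump, was highest in male Ptk6-/- controls, at 111, 121 and 116 CPM. Male wild type controls had 66.2, 77.4 and 83.7 CPM, all lower. The log2 fold change between them was 0.60 ± 0.11 (edgeR's quasi-likelihood test, adjusted p = 0.0345), which passed the p threshold, as did 4.23% of all genes, but is under the 2-fold change asked of a call. Leaving out single libraries moved that adjusted p between 0.0313 and 0.123, and it passed the threshold no longer without replicate 2 or 3 of the wild type controls or replicate 2 or 3 of the Ptk6-/- controls. Other settings gave log2 fold changes from 0.29 (gene length offset) to 0.81 (limma on log2(FPKM + 1)). The adjusted p was not under 0.05 in all of them. Male succinate mice had 85.7, 46.1 and 55.2 CPM (wild type) and 63.1, 113 and 88.0 CPM (Ptk6-/-). Female controls had 81.0, 60.0 and 71.5 CPM (wild type) and 89.3, 102 and 38.7 CPM (Ptk6-/-). Female succinate mice had 31.6, 35.7 and 79.5 CPM (wild type) and 69.8, 39.7 and 82.6 CPM (Ptk6-/-). Apart from the control males, no pair of groups compared was free of overlap. Pooled over 24 mice, the effects were -0.37 ± 0.17 for succinate, 0.40 ± 0.17 for Ptk6-/- over wild type and 0.38 ± 0.17 for male over female, with adjusted p-values of 0.300, 0.357 and 0.325.

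Trpv6 (ENSMUSG00000029868, chr6:41597558-41613339, minus strand), for the apical calcium channel, had no count in 20 of 24 libraries. The other 4 had 3, 3, 5 and 7 counts, and the highest was a female wild type succinate mouse. A floor of 3 counts corresponds to 0.0509 to 0.823 CPM, depending on the library, so levels up to there were not detectable at this depth, and floors cover counting error only. Cyp24a1 (ENSMUSG00000038567, chr2:170324628-170339065, minus strand), for the enzyme that degrades calcitriol, had 6 counts in 1 male Ptk6-/- succinate mouse and 0 in the other 23. Neither gene was tested.

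Vdr (ENSMUSG00000022479, chr15:97752306-97808511, minus strand) followed Slc34a2 over a narrower range. Male wild type controls had 216, 262 and 279 CPM and male Ptk6-/- controls 346, 329 and 365 CPM, without overlap. Female wild type controls had 217, 189 and 232 CPM and female Ptk6-/- controls 262, 321 and 224 CPM. Under succinate, wild type males had 346, 228 and 158 CPM, and Ptk6-/- males 172, 347 and 317 CPM. The succinate males overlapped their controls in both genotypes. Wild type females on succinate had 149, 89.4 and 231 CPM and Ptk6-/- females 157, 74.6 and 154 CPM. All 3 of the latter lay below every Ptk6-/- control female.

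The genotype effect on Vdr was 0.45 ± 0.13 in control males (edgeR's quasi-likelihood test, adjusted p = 0.0799) and 0.38 ± 0.25 in control females. Under succinate it was 0.21 ± 0.42 in males and -0.28 ± 0.46 in females. Without replicate 3 of the wild type succinate mice these values turned, to -0.03 in males and 0.11 in females. The other extremes were 0.58 in males without replicate 1, and -0.57 in females without replicate 2, of the wild type succinate mice. The succinate effect was -0.06 ± 0.30 in wild type males, -0.30 ± 0.28 in Ptk6-/- males, -0.42 ± 0.37 in wild type females and -1.09 ± 0.36 in Ptk6-/- females (adjusted p = 0.410 for the last). With single libraries left out, it ran from -0.47 to -0.09 in Ptk6-/- males, the latter without the library that stood apart, and in wild type females it was -0.79 without replicate 3 and -0.14 without replicate 2 of the succinate mice. In wild type males it was -0.43 without replicate 1 and 0.17 without replicate 3 of the succinate mice. Pooled, the effects were -0.46 ± 0.18 for succinate (adjusted p = 0.223), 0.19 ± 0.18 for genotype (adjusted p = 0.668) and 0.59 ± 0.18 for male over female (adjusted p = 0.160). None was a call.

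The calls among the 5 tested members other than Slc34a2 are read here against the share of all genes. In control males 0 of 5 were called (0.739% of all genes were) and 3 of 5 had an unadjusted p under 0.05 (25.2% of all genes did), with S100g lower and Atp2b1 and Vdr higher in Ptk6-/- mice. In control females 0 of 5 were called (0.0158% of all genes) and S100g alone had an unadjusted p under 0.05 (11.1%). In wild type females succinate gave 0 calls (0% of all genes) and an unadjusted p under 0.05 for Slc20a1 and S100g (7.77%). In Ptk6-/- females it gave 0 calls (0.0879% of all genes) and such a p for Slc20a1, S100g and Vdr (10.7%). In both of these female comparisons DESeq2 called S100g, beside 1.37% and 2.24% of all genes. Limma on log2(FPKM + 1) called no member there (0.00712% and 0.168% of all genes), nor did voom (0.196% and 1.03%).

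In the pooled succinate fit DESeq2 (1.32% of all genes called) and voom (2.37%) also called S100g. Limma on log2(FPKM + 1), which called 0.177% of all genes, did not (log2 fold change 1.60, adjusted p = 0.109). By edgeR in the pooled fit, S100g and Slc20a1 (higher) and Vdr and Atp2b1 (lower) had an unadjusted p under 0.05, as did 16% of all genes. The pooled genotype fit gave 0 calls (0.0184% of all genes) and 2 unadjusted p-values under 0.05 (12.8%), and the pooled sex fit gave 0 calls (0.134%) and 4 (14.6%). DESeq2 called S100g for sex (1.01% of all genes). For succinate in males of either genotype, and for genotype under succinate in either sex, edgeR gave 0 calls over all genes (0%) and no member had an unadjusted p under 0.05 (2.72% and 4.52% of all genes did for genotype in males and females, 4.07% and 7.75% for succinate in wild type and Ptk6-/- males). Voom with sample quality weights, which called many genes, called S100g in control males (3% of all genes), control females (10.4%), succinate males (9.52%), wild type males on succinate (7.81%) and pooled genotype (5.5%). The genotype by succinate interaction gave 0 calls over all genes with edgeR in either sex (0%), where 3.8% and 6.46% of all genes and no member had an unadjusted p under 0.05, and DESeq2, limma and voom called no member.

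Groups without overlap were also common among all genes. In control males 4 of the 5 tested genes other than Slc34a2, Slc20a1 being the exception, did not overlap between the genotypes (31.4% of all genes did not), and in control females S100g did not (18.9%). For succinate, Slc20a1 did not overlap in wild type males (8.77%), Slc20a2 in Ptk6-/- males (23%), Slc20a1 in wild type females (13.3%) and Slc20a1, S100g and Vdr in Ptk6-/- females (21.2%). Under succinate these 5 genes overlapped between the genotypes in each sex (8.66% and 10.8% of all genes did not). Whether the succinate effect on any of these genes differed between the sexes was not tested.

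Across the 24 mice, on the scale of log2 CPM, Slc34a2 correlated with Vdr at r = 0.930 (Spearman's rho 0.930), and with S100g at r = -0.912 (rho -0.924). These are descriptions, since the 24 points share 8 groups and differ in tissue makeup. The correlation with S100g was -0.700 over the 12 controls, -0.935 over the 12 succinate mice, -0.864 without the 2 mice farthest from the median of Slc34a2 and -0.894 without the 3 libraries that stood apart. With Atp2b1 it was 0.780, and with Slc20a1 -0.815 but -0.240 over the controls alone. With Slc20a2 it was 0.168 (rho 0.513), but 0.755 over the controls, -0.07 over the succinate mice and 0.716 without the 3 libraries that stood apart. Vdr and S100g themselves stood at -0.931, with -0.852 in controls and -0.940 under succinate. Among 15427 other genes (10 or more counts in 12 or more libraries), Vdr ranked 24 from the top and S100g 13 from the bottom in likeness to Slc34a2.

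**Figure D4:**
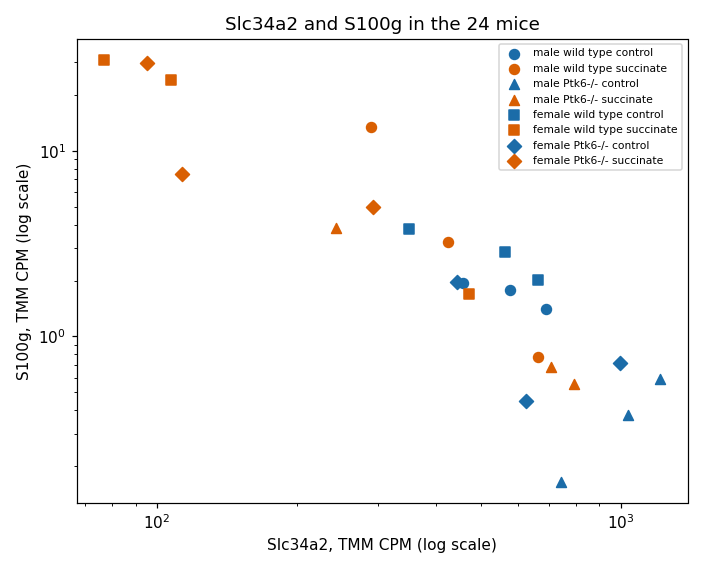
Slc34a2 against S100g (TMM CPM, both axes on a log scale), 1 point per mouse, with shape for sex and genotype and color for treatment. The mice with the least Slc34a2, 77.0 to 113 CPM, carry 7.44 to 30.8 CPM of S100g.

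The 10 genes most like Slc34a2 by Pearson correlation over the 24 libraries were Erbb3 (r = 0.970), Bend7 (0.963), Cobl (0.954), Muc13 (0.948), Enpp7 (0.947), Slc5a12 (0.946), Myo5b (0.944), Enpep (0.940), Zzef1 (0.940) and Atp6v0a2 (0.939). Erbb3 encodes a receptor of the EGF receptor family, Muc13 a transmembrane mucin and Slc5a12 a sodium-coupled monocarboxylate carrier. Enpp7 encodes the intestinal alkaline sphingomyelinase and Enpep an aminopeptidase, both enzymes of the brush border, and Myo5b encodes a motor of apical traffic. Of these 10 genes, 5 were also among the top 10 on the log2(FPKM + 1) scale and 4 without the 3 libraries that stood apart.

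Markers of other cells moved with these genes. The summed level of 8 tuft cell markers, 33.0 to 327 CPM, correlated with Slc34a2 at r = -0.853 and with S100g at 0.795, and all 8 were higher under succinate in the pooled fit (7 called, against 0.525% of all genes). In the pooled sex fit, each of these markers had an unadjusted p under 0.05 for lower levels in males (8.38% of all genes). The median tuft sums of wild type and Ptk6-/- controls were 43.4 and 37.1 CPM in males and 46.6 and 40.1 CPM in females. Under succinate these medians were 73.3 and 41.7 CPM in males and 283 and 316 CPM in females. The sum of 5 smooth muscle markers (1568 to 6547 CPM) correlated at -0.773 and 0.848, and that of 5 Paneth cell markers at -0.698 and 0.701. In the pooled succinate fit, 1 of the smooth muscle markers was called higher and 3 were higher at that p. For Paneth cell markers these counts were 1 and 2, and the shares of all genes 0.512% and 9.25%. In the pooled sex fit, 4 of 5 smooth muscle markers (median -0.72) and 4 of 5 Paneth cell markers (median -0.75) were lower in males at that p. Of all genes, 8.38% were. None of these markers was called lower in males (0.0461% of all genes were). The 8 enterocyte markers, with a median pooled log2 fold change of -0.64 under succinate against 0.01 over all genes, gave 0 calls, with 5 lower and 1 higher at an unadjusted p under 0.05 (6.71% and 9.25% of all genes). In wild type females their sum lay at 27846 to 32710 CPM in controls and 9953 to 23108 CPM under succinate. In Ptk6-/- females it lay at 16899.7 to 31181 CPM in controls and 6139 to 14694 CPM under succinate. The 6 proximal small intestine markers, as a sum, correlated at 0.717 with Slc34a2 and -0.663 with S100g. The 6 distal small intestine markers were lower under succinate at an unadjusted p under 0.05 for 3 in wild type females (median -0.93) and 5 in Ptk6-/- females (median -1.27), the groups with the least Slc34a2, where 2.49% and 5.84% of all genes were lower. In Ptk6-/- males 3 of them were higher at that p (median 0.77), as were 5.66% of all genes, in the group with the library rich in ileal markers. Of 6 heart markers, 5 were higher under succinate in the pooled fit at that p, as were 9.25% of all genes, with a median of 4.24 that includes the library with 17153 CPM of them. In the other succinate libraries their sum was 15 to 208 CPM, and in controls 13.2 to 69.7 CPM.

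Markers also moved with genotype. In control males, S100g had lower values and Atp2b1 and Vdr had higher values in Ptk6-/- mice. In this comparison, 3 of 5 Paneth cell markers were lower at an unadjusted p under 0.05 (median -1.06) and 0 were called. Of all genes, 12.5% were lower and 12.7% higher at that p. There, 1 of 6 goblet cell markers was called higher and 3 were lower at that p, and of the distal markers 1 was higher, 2 were lower and 0 were called. All 5 tested proximal markers had higher values there (median 0.38), with 1 at that p and 0 called, and their sums of 591 to 752 CPM lay above the 506 to 559.5 CPM of the wild type. In control females, 3 of the 6 tested lung markers were higher in Ptk6-/- mice at that p and 1 was called, with sums of 12.4 to 20.7 CPM against 3.30 to 4.99 CPM in wild type. Of 5 lymphoid markers, 3 were higher there at that p (median 2.40), as were 6.08% of all genes. In tissue RNA, fewer enterocytes and less RNA of a gene per enterocyte cannot be told apart, and the part of these shifts in the results was not tested.

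Per 1000 CPM of the enterocyte list, the median level of Slc34a2 was 28.9 in the 12 controls (range 12.5 to 46.5) and 17.1 in the 12 succinate mice (6.81 to 43.8). That of S100g was 0.0629 (0.00977 to 0.136) in controls and 0.278 (0.0205 to 4.84) under succinate. On the same scale the medians of Vdr were 12.3 and 10.3 and those of Atp2b1 3.67 and 3.58, but these hold groups of unlike level. Within wild type females Vdr had 7.57, 6.79 and 7.08 in controls and 9.47, 8.99 and 9.98 under succinate, higher without overlap. Of these, 8.99 is from the library with heart transcripts. In the succinate mouse with 9.47, Apoa4 alone gave 9371 of the 15714 CPM of the enterocyte list. That was its highest level in any library (median 3100 CPM). Over all 12 controls and 12 succinate mice the ranges overlapped for each of these 4 genes. In Ptk6-/- females Slc34a2 had 37.1, 43.4 and 14.2 on this scale in controls and 19.9, 15.5 and 9.0 under succinate, so the groups, apart by CPM, overlapped. S100g had 0.0266, 0.0315 and 0.0630 in the same controls and 0.339, 4.84 and 0.591 under succinate, without overlap. In Ptk6-/- males Slc34a2 had 43.9, 43.3 and 46.5 in controls and 13.8, 29.3 and 29.4 under succinate. These groups did not overlap here, although they did by CPM, and 13.8 is from a library that stood apart. The share of all genes without overlap was not computed on this scale. By CPM it was 13.3% for succinate in wild type females, 21.2% in Ptk6-/- females and 23% in Ptk6-/- males.

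**Figure D5:**
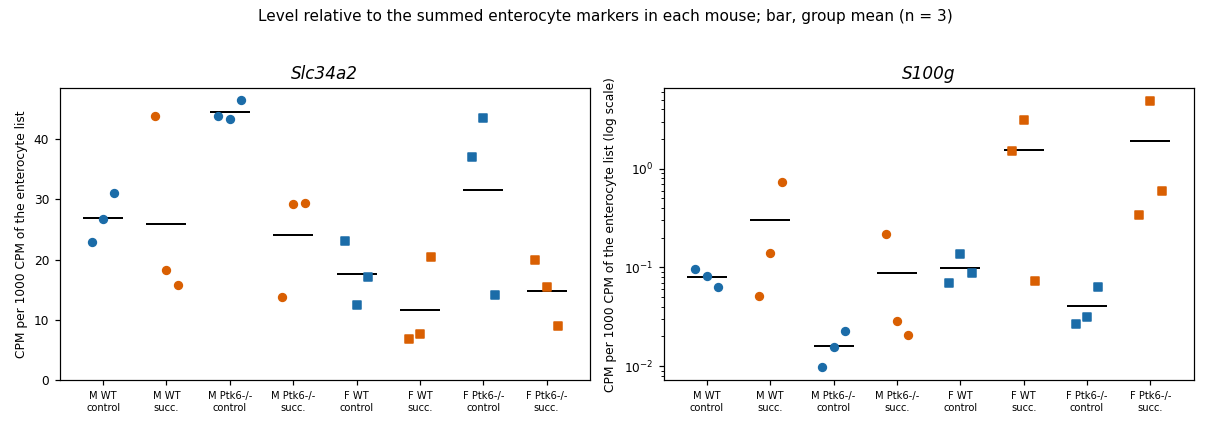
Slc34a2 and S100g (log scale) as CPM per 1000 CPM of the summed enterocyte markers in each mouse, by group, with a bar at the mean of 3 mice. Median levels over controls and succinate mice were 28.9 and 17.1 for Slc34a2, and 0.0629 and 0.278 for S100g.

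Other genes of the same pathways were taken from lists of 19 phosphate, 19 calcium and 16 vitamin D genes. None is a member, and Alpi is also an enterocyte marker. In the pooled succinate fit edgeR called 0 of 19 tested phosphate genes, with 0 higher and 4 lower at an unadjusted p under 0.05 and a median log2 fold change of -0.26. Of 16 tested calcium genes 0 were called, with 1 higher and 4 lower and a median of -0.14. Of 15 tested vitamin D genes 0 were called, with 0 higher and 7 lower and a median of -0.25. Over all genes the median was 0.01, 0.525% were called, and 9.25% were higher and 6.71% lower at an unadjusted p under 0.05. In control males the phosphate list gave 1 call among 18 tested, with 5 higher and 0 lower at an unadjusted p under 0.05 and a median of 0.32. Over all genes the median was 0.02, 0.739% were called, and 12.7% were higher and 12.5% lower at that p. That call was Slc9a3, for the sodium/proton exchanger NHE3 of the brush border, which was higher in male Ptk6-/- controls by 1.46 ± 0.27 (edgeR's quasi-likelihood test, adjusted p = 0.0349). It had 158, 199 and 355 CPM there and 83.8, 84.2 and 87.5 CPM in male wild type controls. In control females the log2 fold change of Slc9a3 was 1.20 ± 0.49 (adjusted p = 0.436), from 96.8, 45.8 and 45.4 CPM in wild type to 105, 237 and 76.2 CPM in Ptk6-/- mice. In control males, the calcium list had 16 and the vitamin D list 13 genes tested, and edgeR called 0, with 4 and 2 higher and 0 and 1 lower at an unadjusted p under 0.05. Their medians were 0.33 and -0.02. In control females, edgeR called 0 of 17 phosphate, 15 calcium and 12 vitamin D genes tested (0.0158% of all genes). At that p, 2, 0 and 2 were higher and 3, 1 and 3 lower, as were 6.08% and 5.03% of all genes. The medians there were 0.18, -0.06 and -0.19, against 0.04 over all genes.

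Chosen after their values were seen, 2 more genes of these lists passed the p threshold in the pooled succinate fit with less than a 2-fold change. Of all genes, 0.636% passed it at any fold. Cldn2, for the claudin of a cation-permeable tight junction pore, was lower under succinate in the pooled fit by a log2 fold change of -0.94 ± 0.21 (edgeR's quasi-likelihood test, adjusted p = 0.0304). Cyp27a1, for a mitochondrial sterol hydroxylase that also acts on vitamin D, was lower by -0.94 ± 0.22 (adjusted p = 0.0489).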

How the data were processed

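RNA was isolated from the distal jejunum of 24 mice (8 groups of 3) and sequenced as stranded poly(A) libraries. The authors aligned reads with HISAT2 and assembled transcripts with StringTie, and deposited a table of gene counts and a table of FPKM (by ballgown) on GRCm39; the counting program is not given in the sources used here. The members and lists, including marker lists, were chosen with earlier results of these data known, and the ratio to the enterocyte markers was computed after values were seen. Every member is named. Pathway genes are named where called in any comparison, and the 10 genes most like Slc34a2 were ranked among genes with 10 or more counts in 12 or more libraries (prior count 2).

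The deposited counts were tested with edgeR 4.0.16 in R 4.3.3 (TMM scaling, quasi-likelihood test, a minimum of 10 counts in 3 or more libraries of the fit, Benjamini-Hochberg adjustment over all genes tested). A gene was called at an adjusted p under 0.05 and at least a 2-fold change. There were 13 comparisons: 8 of 2 groups, 3 additive effects over 24 mice and 2 genotype by succinate interactions. Genotype effects are Ptk6-/- minus wild type, succinate effects succinate minus control and sex effects male minus female. The deposited FPKM values were used for levels between genes and, as log2(FPKM + 1) at a mean FPKM of at least 0.5, in limma 3.58.1. DESeq2 1.42.0, voom, other filters and scalings, a replicate block, a gene length offset and left-out libraries were alternatives. The code was tested on simulated data. Total counts ran from 8080321 to 52824743, and floors of 3 counts cover counting error only, while standard errors and SDs include the spread between mice.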

Additional observations from a re-analysis of the deposited data

How the results depend on the processing

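The following counts cover the values for single genes and the list of genes most like Slc34a2. In these, 1158 kept their direction and side of the threshold or moved by less than their spread. Another 17 moved, 14 passed the threshold newly, 2 lost it and 15 reversed. Those that moved include the overlap of that list with its versions on log2(FPKM + 1) and without the 3 libraries that stood apart. Of the counts of called members, 282 stayed within 1.5 times and 16 did not. The pooled succinate count of 1 (S100g) was 0 with 10 counts required in every library, where S100g with its 9 counts in 1 mouse was filtered out, and 0 with limma on log2(FPKM + 1) (log2 fold change 1.60, adjusted p = 0.109). It ranged from 0 to 1 with single libraries left out, 0 being without replicate 3 of the male wild type succinate mice, where S100g had 2.31 (adjusted p = 0.0839). Other counts, 0 by edgeR, were 1 under some alternatives, each time for S100g. This held in control males without a filter, with voom and without rRNA counts, and with voom in control females, between succinate males, for succinate in wild type males and for genotype pooled. DESeq2 gave 1 for succinate in wild type females, for succinate in Ptk6-/- females and for sex. With single libraries left out, the count ranged from 0 to 1 in control females, from 0 to 1 for succinate in wild type males and from 0 to 2 for succinate in wild type females. The effect of succinate on Slc20a2 reversed to 0.0043 pooled with a gene length offset, and to -0.12 in wild type females both without the 3 libraries that stood apart and without replicate 2 of the succinate mice (-0.12 to 1.02 with single libraries left out). Under limma on FPKM, reversals were -0.41 for Vdr between succinate males, 0.067 for S100g between succinate females, and 0.085 for Slc20a2 and 0.26 for Vdr for succinate in wild type males. Slc20a1 for succinate in Ptk6-/- males reversed to 0.068 with the gene length offset and to 0.070 with that offset and the replicate block. S100g between succinate females was 0.088 without the 3 libraries that stood apart, and Vdr there 0.058 with voom. With single libraries left out, Vdr ran from -0.030 to 0.58 between succinate males, from -0.57 to 0.11 between succinate females and from -0.43 to 0.17 for succinate in wild type males, and S100g from -1.58 to 0.088 between succinate females. None of these passed the test. The genotype effect on Slc34a2 between succinate males was -0.37 with limma on FPKM and 1.05 with voom, between succinate females -0.80 without the 3 libraries and 0.68 with voom, and in control males 1.20 with limma. Its succinate effect was -0.01 (limma) and -0.81 (voom) in wild type males, -1.58 (limma) in Ptk6-/- males and -2.04 (voom) in wild type females. Its interaction was -1.57 (limma) and 0.17 (voom) in males and -1.22 (without the 3 libraries) and 0.16 (voom) in females, and its pooled genotype effect 0.57 with voom. Except where a filter or a left-out mouse shows it, the cause was not tested. Deviations of mice with the same replicate number correlated at -0.43 to 0.29, without a common sign. With 3 mice per group, these values cannot settle whether the numbers pair the mice. With the replicate block the pooled S100g effect was 2.59 (edgeR, adjusted p = 0.0260), and the block changed no call. The edgeR adjusted p of Atp2b1 in control males, below 2-fold, went from 0.0345 to 0.0608 with the block.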
